A study of Mus musculus with 2 samples.

Results

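Cpm and Vsig8 are 2 of the 43346 features in a deposited gene table. The cells were X63/0 (X63-Ag8.653), a mouse plasmacytoma line. The genes were chosen by their RPKM in these same libraries: of the 5609 annotated genes with at least 1000 exon reads over both libraries, they were the 2 whose RPKM was at least 2-fold lower after cycloleucine. RPKM is the number of exon reads per kb of exon, scaled to the gene reads of the library. Their lowering is therefore given as a description. The groups were X63/0 cells given 30 mM cycloleucine in culture medium for 3 h, and untreated X63/0 cells. RNA was sequenced on an Ion Proton after removal of ribosomal RNA. The design text speaks of a triplicate, but 1 library per group was analysed here. Nothing below could be set against a spread between replicates, and p-values are left out. Cycloleucine was added from a stock in culture medium, and whether the untreated cells got medium alone is not given in the labels. The spliced-read evidence for both genes was thin, and in Cpm it went the other way from the exon and intron reads.

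Cpm encodes carboxypeptidase M, an enzyme held on the outer face of the cell membrane by a glycosylphosphatidylinositol (GPI) anchor. It removes a lysine or arginine from the carboxyl end of peptides such as bradykinin and the anaphylatoxins, and in human blood cells it marks monocytes that mature into macrophages. Vsig8 encodes a membrane protein of the immunoglobulin superfamily with V-set domains, known from hair and nail epithelium. Cycloleucine blocks methionine adenosyltransferase, the enzyme that makes S-adenosylmethionine, the methyl donor of the cell. The deposited table splits the reads of a gene into exon reads, intron reads and exon-exon reads. Exon-exon reads are those exon reads that cross the join of spliced exons, and they come from spliced RNA.

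Both genes lie on the plus strand in mm10, Cpm on chromosome 10 from 117629500 to 117687352 and Vsig8 on chromosome 1 from 172555938 to 172563717. The deposited exon lengths, 5964 bases for Cpm and 1879 bases for Vsig8, equalled the joined length of all their exons in GENCODE M21. The main coding transcript of Cpm has 9 exons and 8 joins over 5195 bases, and its last exon, 4075 bases long, is 78.4% of it. Of that last exon, 3835 bases are 3' untranslated. That of Vsig8 has 7 exons and 6 joins over 1801 bases, with a last exon of 699 bases.

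The sequences below show what a spliced read of each gene would contain. For Vsig8 all 6 joins of this transcript are given, because together they drew almost no reads. For Cpm the join across its longest intron and the join into the long last exon are given. Each line holds 30 bases of the plus strand from GENCODE M21, and the capitals mark the last base of one exon and the first base of the next.
Vsig8 exons 1 and 2: tgtgcctgagcccaGCactgttgtctgctg
Vsig8 exons 2 and 3: cacagggagaatgtTTttcttacttatcaa
Vsig8 exons 3 and 4: ttgtcactgtccaaGCacgtcctgcggtgc
Vsig8 exons 4 and 5: gcaccatcaaccaaGGcctgggcaacggag
Vsig8 exons 5 and 6: aggtgaaagtctcaGActcccagcgagtag
Vsig8 exons 6 and 7: ggctagtgagatcaGAgtggacgccgaggc
Cpm exons 2 and 3: ggaaatctgtgagaGGtagaaacctgtggg
Cpm exons 8 and 9: tcctacgtgatcaaTGttacagtccctgga

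Exon and intron reads of Cpm were lower together in the cycloleucine library, while its exon-exon reads were higher. Cpm had 1282 exon reads in the cycloleucine library and 2536 in the untreated library, and an RPKM of 6.73 with cycloleucine and 15.7 without it. Relative to the gene reads of each library this was 2.33-fold lower with cycloleucine (95% counting interval 2.18 to 2.49). The log2 fold change of RPKM, with 0.1 added to each value, was -1.21. Nearly all of these exon reads had a single place in the genome, 98.5% in the cycloleucine library and 98.8% in the untreated library. Uniquely placed exon reads were 1263 with cycloleucine and 2506 in untreated cells, a 2.28-fold lower rate (2.13 to 2.44). The choice of total or unique reads thus made little difference to Cpm.

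Intron reads of Cpm numbered 1003 in the cycloleucine library and 2140 in the untreated library. Scaled to gene reads they were 2.51-fold lower (2.33 to 2.71), and the unique ones, 853 with cycloleucine and 1947 in untreated cells, were 2.63-fold lower (2.42 to 2.85). The introns of Cpm are long, 51889 bases by the deposited coordinates, so per kb they drew 19.3 reads with cycloleucine and 41.2 reads without it. Its exons drew 215 reads per kb with cycloleucine and 425 reads per kb without it. Introns held 43.9% of the Cpm gene reads with cycloleucine (41.8% to 46.0%, exact binomial) and 45.8% without it (44.3% to 47.2%). The log2 change of the intron to exon ratio was -0.11 (normal interval -0.25 to 0.04) from total reads. From uniquely placed reads it was -0.20 (-0.35 to -0.05), so on that count intron reads were lower by somewhat more than exon reads.

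Exon-exon reads of Cpm numbered 44 in the cycloleucine library and 21 in the untreated library, all of them uniquely placed. Scaled to gene reads they were 1.78-fold higher with cycloleucine (1.04 to 3.15), a log2 ratio of 0.83 (0.05 to 1.66). Exon reads of Cpm that crossed no join numbered 1238 with cycloleucine and 2515 in untreated cells, 2.39-fold lower (2.23 to 2.56). Exon-exon reads were therefore 3.43% of the Cpm exon reads in the cycloleucine library (2.50% to 4.58%) and 0.828% in the untreated library (0.513% to 1.26%). These intervals do not overlap, but they cover counting error only. Their denominator is the exon reads by which Cpm was chosen, so the difference in share is a description. The authors' deposited table lists 2 of the 4 annotated Cpm transcripts as detected in the cycloleucine library and 1 in the untreated library.

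Vsig8 was read almost wholly within exons. It had 621 exon reads in the cycloleucine library and 1080 in the untreated library, and an RPKM of 10.3 with cycloleucine and 21.2 without it. The rate was 2.05-fold lower with cycloleucine (1.85 to 2.26), a log2 fold change of -1.03. Uniquely placed exon reads, 612 with cycloleucine and 1061 in untreated cells, were 1.99-fold lower (1.80 to 2.21), just short of 2-fold. The interval of Vsig8 thus took in 2-fold, whereas that of Cpm lay wholly beyond it. Both genes were chosen for passing 2-fold in these libraries, and the intervals cover counting error only, so this is a description.

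Exon-exon reads of Vsig8 were 0 in the cycloleucine library and 2 in the untreated library, of which 1 was uniquely placed. With 621 exon reads, the count of 0 allows an exon-exon share of up to 0.483% in the cycloleucine library, taken as 3 reads of 621, and the exact binomial upper bound is 0.592%. In the untreated library the share was 0.185% (exact binomial interval 0.0224% to 0.667%). No fold is given for these reads, since both counts lie at or under the 3 counts that a count of 0 allows. Intron reads were also few, 4 with cycloleucine and 7 in untreated cells over 5901 intron bases, with a fold that could lie anywhere from 1.91-fold higher to 9.60-fold lower. Vsig8 thus had neither the join reads of a spliced RNA nor the intron reads of an unspliced one in any number. The authors' deposited table lists 0 of its 2 annotated transcripts as detected in either library, which was so for 27 of 5501 annotated genes with more than 1 exon and at least 1000 exon reads, or 0.491%. The table gives no position of a read within the exons, so the exon or exons that drew the Vsig8 reads are not known here.

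**Figure D1:**
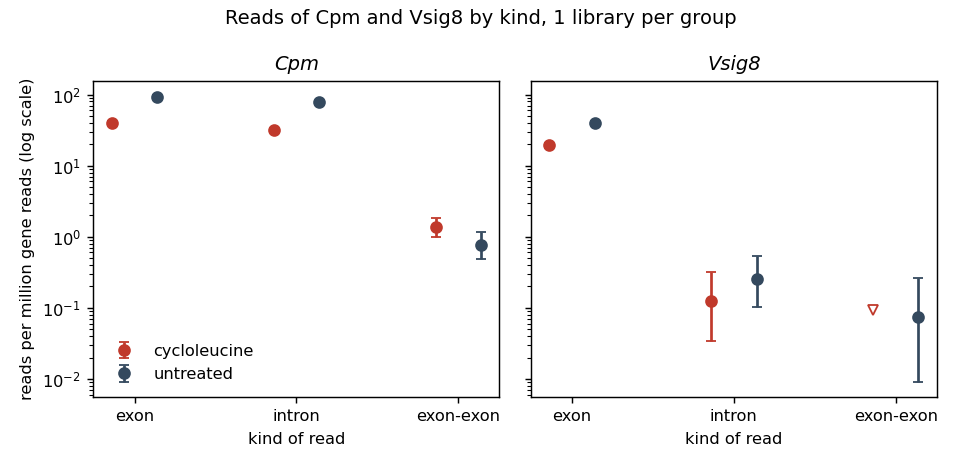
Reads of Cpm (left) and Vsig8 (right) scaled to the gene reads of the library, in the unit on the axis and on a log scale, by kind of read, with cycloleucine (red) left of untreated (dark). Bars are 95% exact Poisson intervals, hidden where smaller than the point, and the open triangle is the limit that the 0 exon-exon reads of Vsig8 allow. Exon and intron points of Cpm are lower with cycloleucine, and its exon-exon point is higher.

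Set against all genes, the lowering of Cpm and Vsig8 was rare. Only these 2 of 5609 annotated genes with at least 1000 exon reads were at least 2-fold lower, a background of 0.0357%, and this is the rule that chose them. The middle 95% of the log2 fold changes of those genes ran from -0.33 to 0.38, with a median of -0.000099. In the other direction 1 gene, Mat2a, was at least 2-fold higher, or 0.0178%. At 1.5-fold 12 of the 5609 were lower, or 0.214%, and 25 higher, or 0.446%. With uniquely placed exon reads and the same minimum, 1 of 5158 genes was at least 2-fold lower, or 0.0194%, and this gene was Cpm. On that count 0.0388% were at least 2-fold higher. In level both genes lay near the middle: the mean RPKM of Cpm over both libraries exceeded that of 52.5% of the 5609 genes, and that of Vsig8 exceeded 65.0%.

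Just outside the fold rule, D630039A03Rik had 472 exon reads with cycloleucine and 741 in untreated cells, a log2 fold change of -0.87, with 56.7% of its exon reads uniquely placed and -0.68 from those. Scamp4 followed at -0.82 and the ribosomal protein pseudogene Rpl9-ps6 at -0.80, but 0.0834% of the Scamp4 exon reads and 0.558% of those of Rpl9-ps6 were uniquely placed. Mfsd2a, a lysophospholipid transporter gene, stood at -0.70, Inip at -0.67 and Cox17, a copper chaperone gene of the respiratory chain, at -0.66. Of the Cox17 exon reads 24.0% were unique, 161 with cycloleucine and 145 in untreated cells, and from these it stood at -0.05. Just outside the read rule were 2410002F23Rik, with 774 exon reads and a log2 fold change of -2.40, and Metrn, with 571 exon reads and -1.09. From unique reads Metrn was at -0.53, and 6.20% of the exon reads of 2410002F23Rik were unique.

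**Figure D2:**
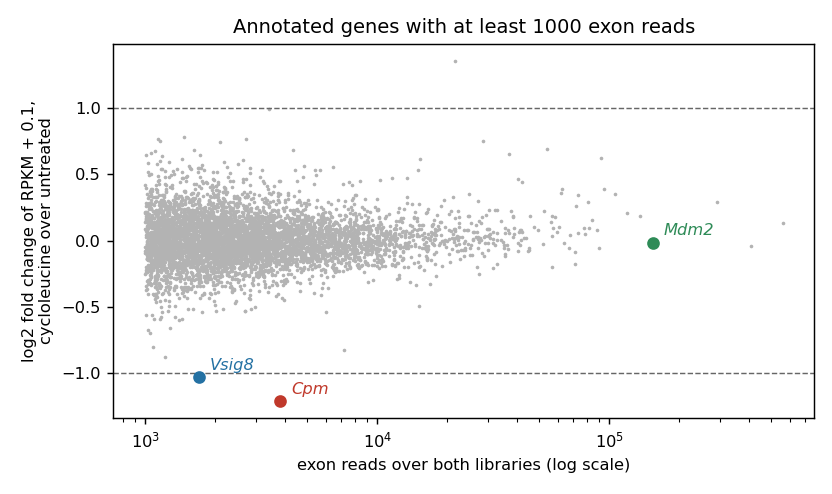
Log2 fold change of RPKM with 0.1 added, cycloleucine over untreated, against exon reads over both libraries on a log scale, for 5609 annotated genes (grey points). Dashed lines mark 2-fold in each direction. Cpm at -1.21 and Vsig8 at -1.03 are the points below the lower line, and Mdm2, the neighbour of Cpm, lies at -0.01.

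The intron reads of Cpm, which come from the same 2 libraries as the values that chose it, were also low for their kind. Of 1400 annotated genes with at least 1000 intron reads, 10 were at least 2-fold lower with cycloleucine, a background of 0.714%. Cpm was 1 of the 10, and 1 gene, Sspn, lay below it. The exon-exon reads stood at the other end. Of 7810 genes with at least 50 such reads, 386 were at least 1.5-fold higher, or 4.94%, and Cpm was among them, while 4.48% were at least 1.5-fold lower. Of the 1089 genes with 50 to 100 exon-exon reads, 108 had a higher ratio than Cpm, so on its own the change of its exon-exon reads was not rare among genes with so few.

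The ratio of exon-exon to exon reads is given as a description, because its denominator is the exon reads by which Cpm was chosen. With 0.5 added to each count, the log2 change of exon reads was -1.22 and that of exon-exon reads 0.81, so most of the change of the ratio lies in the exon reads. The log2 change of the ratio was 2.03 (normal interval 1.28 to 2.78), while the middle 95% of 6718 genes with at least 100 exon-exon and 200 exon reads ran from -0.50 to 0.48. Cpm had 65 exon-exon reads over both libraries and is not in that set. In the wider set of 7688 genes with at least 50, a minimum chosen after the data were seen, the middle 95% ran from -0.60 to 0.60. No gene of that set had a higher value than Cpm, but the exon reads by which Cpm was chosen enter this ratio. How much of its place comes from that choice was not tested. Both exon and intron reads were at least 1.5-fold lower in 10 of 7147 genes with at least 50 reads of each kind. Cpm was the 1 of the 10 whose exon-exon reads were higher, at 44 with cycloleucine and 21 in untreated cells. The exon reads by which Cpm was chosen helped to put it among the 10, so this too is a description. The genes nearest to Cpm over the changes of all 3 kinds of read were C1rl, Rab11a and Synj2bp. They were not close, since Rab11a lay 1.15 and Synj2bp 1.21 log2 units from Cpm over 2 libraries. C1rl, a relative of a complement protease, had 179 exon reads with cycloleucine and 242 in untreated cells, and 37 exon-exon reads with cycloleucine and 22 in untreated cells. Vsig8 had too few exon-exon and intron reads for such a comparison.

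**Figure D3:**
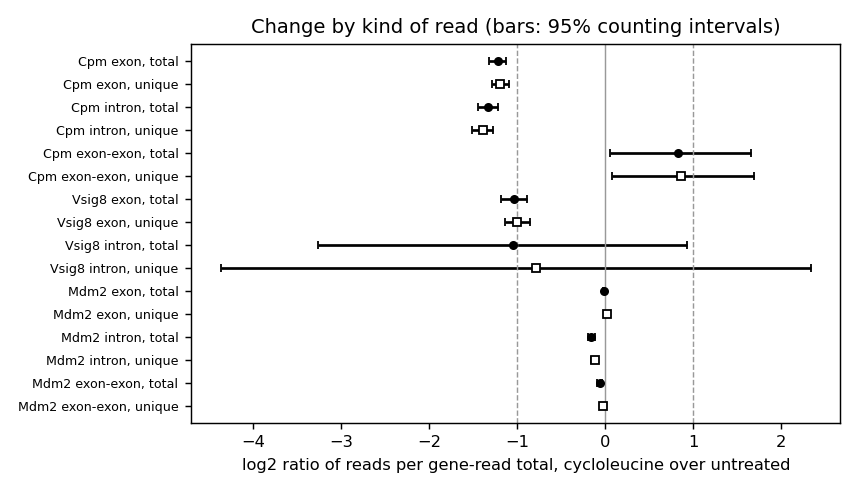
Log2 ratio of reads per gene-read total, cycloleucine over untreated, by gene and kind of read, from total reads (filled circles) and uniquely placed reads (open squares). Bars are 95% exact counting intervals, the solid line marks 0 and the dashed lines 2-fold. Cpm exon and intron reads lie beyond 2-fold lower, its exon-exon reads at 0.83, and all kinds of Mdm2 reads between -0.16 and 0.02. Exon-exon reads of Vsig8 are too few to plot.

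Low exon-exon shares were a trait of both genes in both libraries. Over both libraries together the share was 1.70% of exon reads in Cpm and 0.118% in Vsig8, against a median of 23.5% over 5500 annotated genes with more than 1 exon, at least 1000 exon reads and a number for these reads. Only 81 of those genes had a lower share than Cpm and 20 a lower share than Vsig8. The long last exon of Cpm leaves fewer joins per base of its main transcript. The share was also divided by joins per kb of deposited exon, with joins taken as deposited exons less 1. Deposited exons numbered 15 in Cpm and 9 in Vsig8, against 9 and 7 in the main transcripts. The scale therefore does not correct for that last exon alone. On that scale Cpm stood at 0.725 and Vsig8 at 0.0276 against a median of 5.22, with 65 genes below Cpm and 16 below Vsig8. In the cycloleucine library alone 170 genes had a lower share than Cpm, and in the untreated library alone 49 did.

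Genes were then divided at an exon-exon share of 2%, a bound chosen after the values were seen. Of 96 genes with an exon-exon share under 2%, 8.33% were past 1.5-fold in either direction, and of the 5404 genes at or above 2%, 0.444% were. Both genes that were at least 2-fold lower, Cpm and Vsig8, belonged to the 96 and count in the 8.33%. They were chosen by that fold, so these shares are a description. The median log2 fold change of the 96 was 0.10, so as a group they were not lower.

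**Figure D4:**
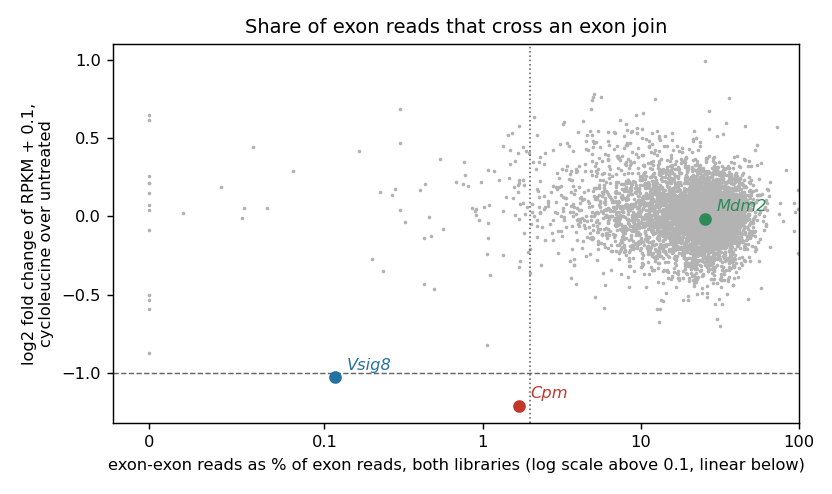
Log2 fold change of RPKM with 0.1 added, cycloleucine over untreated, against the percent of exon reads that are exon-exon reads over both libraries, for 5500 genes (grey). The dotted line marks 2% and the dashed line 2-fold lower. Cpm at 1.70% and Vsig8 at 0.118% lie left of the dotted line, while Mdm2 lies at 25.7%, in the bulk of genes.

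Introns also set Cpm and Vsig8 apart from each other. The intron share of gene reads, over both libraries, was 45.2% in Cpm, higher than in 95.3% of the 5609 genes, and 0.643% in Vsig8, higher than in 4.51%. The median was 10.9%. Per kb, intron reads were 0.0946 of exon reads in Cpm and 0.00206 in Vsig8, with a median of 0.0253 over 5302 genes with at least 1 kb of intron.

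The nearest gene to Cpm is Mdm2, which encodes the ubiquitin ligase that restrains p53. Mdm2 lies on the minus strand, so the 2 genes end toward each other, and 1535 bases separate them in the deposited coordinates. Mdm2 had 82872 exon reads in the cycloleucine library and 71053 in the untreated library, an RPKM of 512 with cycloleucine and 517 without it. It was 1 of the highest genes of the line, with 51 of 5609 genes above it, and its RPKM was 76.0 times that of Cpm with cycloleucine and 33.0 times without it. Its log2 fold change was -0.01, and its exon-exon share was 25.3% with cycloleucine and 26.1% without it. Intron reads of Mdm2 numbered 10237 with cycloleucine and 9690 without it. Scaled to gene reads, they were 1.11-fold lower with cycloleucine (1.08 to 1.15). The table does not say whether strand was used in counting, so reads of RNA from the Mdm2 strand that fall within Cpm could not be told apart from Cpm reads.

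Other genes within 100 kb of Cpm did not share its change. Slc35e3, of a nucleotide sugar transporter family, had 369 exon reads with cycloleucine and 312 in untreated cells, a log2 fold change of 0.0058. Nup107, a nuclear pore gene, had 1939 exon reads with cycloleucine and 1667 in untreated cells and stood at -0.02. The feature Gm25709, within Cpm, had 0 reads in either library.

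Around Vsig8 the nearest annotated genes were barely read. The noncoding gene 4933439K11Rik lies on the opposite strand and overlaps 2192 bases of Vsig8, including its first exon, and had 4 exon reads with cycloleucine and 0 in untreated cells. Cfap45, a cilia gene that ends 10067 bases before Vsig8, had 1 exon read in each library. Slamf8, 18040 bases after it, had 11 with cycloleucine and 4 in untreated cells. Farther away, Tagln2, a gene for an actin-binding protein, had 5927 exon reads with cycloleucine and 5277 in untreated cells, at -0.07 in log2. Slamf9, of the SLAM receptor family, was at 0.05 and Igsf9 at -0.16. On the other side Dusp23, a phosphatase gene, had 31 with cycloleucine and 19 in untreated cells, at 0.40. Fcrl6 had 2 with cycloleucine and 1 in untreated cells, and RP24-144H23.4 had 1 in each library. None of these neighbours with at least 50 exon reads was past 1.5-fold.

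**Figure D5:**
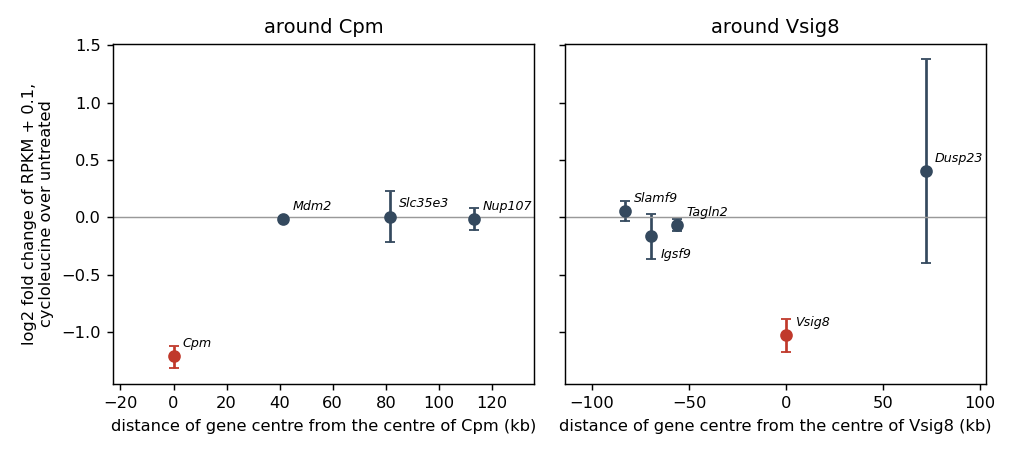
Log2 fold change of RPKM with 0.1 added, cycloleucine over untreated, for annotated genes within 100 kb of Cpm (left) and Vsig8 (right) with at least 50 exon reads, against the distance of gene centres in kb. Bars are 95% exact counting intervals of the ratio of reads. Cpm and Vsig8 (red) lie below -1, and their neighbours (dark) lie between -0.16 and 0.40.

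Relatives of Cpm by function gave no common change. Of 22 M14 metallocarboxypeptidases, the enzyme family of Cpm, 5 had at least 50 exon reads, 3 above 0 and 2 below, around a list median of 0.04. Cpm, which the list holds, was the only measured member past 1.5-fold. Over all 10434 annotated genes with that minimum, 2.61% were at least 1.5-fold lower and 2.76% at least 1.5-fold higher, and the median log2 fold change was 0.0026. Cpd, a related carboxypeptidase of the secretory pathway, had 788 exon reads with cycloleucine and 649 in untreated cells and stood at 0.04. Agbl5 and Agtpbp1, which trim glutamates from tubulin, were at 0.17 and -0.19. Cpe, the prohormone-processing relative, had 2 exon reads with cycloleucine and 8 in untreated cells.

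A list was drawn up around the peptides, receptors and peptidases of the kinin and anaphylatoxin systems. Of its 25 names 24 were in the table and 3 had at least 50 exon reads, with a median log2 fold change of -0.10. These were the prolyl peptidases Prep at -0.10 and Xpnpep1 at 0.0089, and the growth factor gene Egf, which the list also holds, at -0.23. The bradykinin receptor genes Bdkrb1 and Bdkrb2 had 2 and 1 exon reads with cycloleucine and 0 each in untreated cells. The receptor side of the system was thus hardly read in this line.

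Cpm needs a GPI anchor to stay on the membrane. Genes that build, attach, remodel or cleave the anchor were listed, and 28 of 30 were measured. Their median log2 fold change was -0.08, with 11 above 0 and 17 below, 1 past 1.5-fold upward and 1 downward. Dpm1, a subunit of the dolichol phosphate mannose synthase, had 611 exon reads with cycloleucine and 302 in untreated cells, at 0.74 (0.58 to 0.98). Pigw, an acyltransferase of the early anchor, had 149 with cycloleucine and 199 in untreated cells, at -0.62 (-0.97 to -0.34). Dpm3 stood at 0.39 and Pigp at -0.38. Of 29 other genes for GPI-anchored surface proteins, 13 were measured, 6 above 0 and 7 below, with a median of -0.02. Here too 1 was past 1.5-fold upward and 1 downward. Ly6a had 46 exon reads with cycloleucine and 11 in untreated cells, at 1.57. Efna1, an ephrin gene, had 62 with cycloleucine and 89 in untreated cells, at -0.71. Ulbp1 stood at 0.47 and Ly6d at -0.39.

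Relatives of Vsig8 in the immunoglobulin superfamily were measured in 10 cases of 25 listed, 4 above 0 and 6 below, with a median of -0.09. Vsig8, which the list holds, was the only measured member past 1.5-fold. Of all annotated genes with at least 50 exon reads, 2.61% were at least 1.5-fold lower. Mpzl3 had 260 exon reads with cycloleucine and 151 in untreated cells, at 0.50, and Mpzl2 had 97 with cycloleucine and 112 in untreated cells, at -0.41. Vsig10 stood at 0.36. The table's 4632428N05Rik, now called Vsir and encoding the checkpoint protein VISTA, also stood at 0.36, with 89 exon reads with cycloleucine and 56 in untreated cells.

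Promoter sequences of both genes are shown because the rule put both genes together. They are the 250 bases before the start of each gene in RefSeq on GRCm38.p6, plus strand, and the capitals mark GGGCGG or its reverse complement CCGCCC, the box bound by Sp1-type factors.
Cpm, chr10:117629250-117629499: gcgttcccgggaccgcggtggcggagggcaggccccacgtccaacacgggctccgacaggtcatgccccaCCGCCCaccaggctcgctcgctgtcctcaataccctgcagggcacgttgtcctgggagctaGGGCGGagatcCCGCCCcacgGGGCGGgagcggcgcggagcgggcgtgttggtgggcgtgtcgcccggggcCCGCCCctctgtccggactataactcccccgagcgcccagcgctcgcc
Vsig8, chr1:172555688-172555937: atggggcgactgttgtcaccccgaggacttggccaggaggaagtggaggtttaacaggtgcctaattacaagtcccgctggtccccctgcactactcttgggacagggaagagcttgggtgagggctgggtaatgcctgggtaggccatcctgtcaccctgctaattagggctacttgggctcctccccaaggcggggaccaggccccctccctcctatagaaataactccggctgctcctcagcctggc

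The Cpm stretch held GGGCGG at 5 places on either strand and had 74.4% G and C. The Vsig8 stretch held none and had 60.0% G and C. Of 32851 promoter stretches of the same length, 32.7% held GGGCGG. None of the other letters searched on both strands was found before either gene start, namely TATAAA (in 12.4% of all stretches), CCAAT (33.8%), CACGTG (6.02%), TGACGTCA (1.55%) and TGTTTAC (3.17%). The matches did not overlap. Before a second RefSeq start within Vsig8, TGACGTCA was found at 1 place. The promoters thus had no searched motif in common.

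The libraries held 31951946 gene reads with cycloleucine and 27127865 without it. Exon reads were 49.4% of them with cycloleucine and 48.4% without it, and exon-exon reads 11.1% in both. The line showed its plasma cell label, with all 8 markers measured and a summed RPKM of 879 with cycloleucine and 870 without it, among them Mzb1, Xbp1, Irf4 and Sdc1. Macrophage markers, looked at because human macrophages carry carboxypeptidase M, summed to 1.58 RPKM with cycloleucine and 1.56 without it over 7 genes, with Emr1 at 0. Keratinocyte and epithelial markers, looked at for Vsig8, summed to 6.74 with cycloleucine and 5.89 without it, nearly all of it Epcam, with Krt14 and Krt18 at 0. T and natural killer cell markers summed to 0.630 with cycloleucine and 0.419 without it, and fibroblast markers to 0.267 with cycloleucine and 0.277 without it. Fewer cells of a type and less RNA per cell cannot be told apart in such libraries. Of 6 B cell markers 2 were measured, Cd79b and Ms4a1. The 6 summed to 55.8 RPKM with cycloleucine and 53.6 without it, nearly all of it Cd79b.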

How the data were processed

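The deposited table held counts of reads per gene, total and uniquely placed, which the authors gave for genes, exons, exon-exon joins and introns, per the file headers. Deposited RPKM values equalled the authors' exon reads (gene reads where no transcript is annotated) per kb, scaled to gene reads, in 43346 of 43346 features of each library, within a share of 0.0001. A deposited signed fold score of the authors compared both RPKM values. Coordinates are in mm10, per the submitters' processing notes. The aligner, the counting tool and whether strand was used were not given in the sources used here. Columns of other libraries numbered 0. The total exon-exon cell of Mat2a in the cycloleucine library holds no number.

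Log2 fold changes used RPKM plus 0.1, so that low genes show too small a change. With 1 library per group, cycloleucine and untreated cells were not compared by a test. Counting intervals, at 95%, are Clopper-Pearson (exact) bounds of the cycloleucine share of a gene's reads, scaled by library gene reads, or exact Poisson or binomial intervals. Those of ratio changes are normal approximations with 0.5 added to each count. All cover counting error only. Amplified reads with no molecular identifier may copy 1 molecule, so the intervals may be too narrow even for that. The calculation behind the 2-fold rule was tried on simulated counts with known folds. These held counting error only, so the trial does not cover spread between libraries. Members, lists, rules and tests were chosen with earlier results of these data known. Named were both genes, the 6 next lowest genes, genes just under the read minimum, neighbours within 100 kb, the 3 genes nearest in pattern, and up to 4 members of each list; genes named beyond these were chosen after their values were seen. Alternatives tried were other pseudocounts, read minimums, unique reads and other scalings. Python 3.11.15, pandas 2.3.3 and scipy 1.17.1 were used. GENCODE M21 and RefSeq gave gene structures and sequences.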

Additional observations from a re-analysis of the deposited data

How the results depend on the processing

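No paired analysis was possible because the cycloleucine and untreated groups hold 1 library apiece, and for the same reason no library could be left out. Of 39 values recomputed under another setting, 28 stayed within their counting interval or within 1.5 times the count. The log2 fold change of Cpm was -1.11 with a pseudocount of 1. The number of annotated genes at least 2-fold lower was 11 with at least 200 exon reads, 4 with at least 500, 265 with no minimum, 1 with a pseudocount of 1 and 1 with unique reads. The number at least 2-fold higher was 10, 4 and 217 under the same 3 minimums, 2 with no pseudocount and 2 with unique reads. More genes enter under lower minimums, and the cause of the other shifts was not tested. Vsig8 was the gene lost from the lower count with a pseudocount of 1, at -0.97, and with unique reads, at -0.996. Scaling by a trimmed mean of log ratios moved each log2 value by 0.0022. The log2 fold change of Cpm exon-exon reads, cycloleucine over untreated, stayed between 0.82 and 0.87 under the 3 other settings tried. For Vsig8 the exon-exon settings gave no value, since its counts were 0 with cycloleucine and 2 without it. The limit of depth is the 65 exon-exon reads of Cpm and the 11 intron reads of Vsig8 over both libraries.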

Other observations

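Besides Cpm and Vsig8, 3 genes with an exon-exon share under 2% and at least 1000 exon reads were at least 1.5-fold lower with cycloleucine, and 3 were at least 1.5-fold higher. These genes were picked after their values were seen. Dmp1, which encodes a matrix protein of bone and dentin, had 628 exon reads with cycloleucine and 806 in untreated cells over 6 exons, 0 exon-exon reads in either library, and 7 intron reads with cycloleucine and 3 without it, at -0.59 in log2. D630039A03Rik likewise had 0 exon-exon reads in either library, and 2 intron reads with cycloleucine and 3 without it. Dmp1 and D630039A03Rik thus resembled Vsig8 in having exon reads with next to no join or intron reads. The third lower gene was Scamp4, and the higher ones were Gm17494 at 0.62, the histone gene Hist2h2bb at 0.65 and Rbm15, of the N6-methyladenosine writer complex, at 0.69.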
